A study of Rattus norvegicus with 12 samples.

Results

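The potassium channel genes were taken as every gene of the array annotation with a single symbol starting with Kcn, and each was represented by its probe set with the highest mean over the 12 arrays. This gave 83 genes on 85 probe sets, of 14503 genes with a single symbol and 26468 probe sets in all. Of the 83 genes, 59 had a mean log2 signal at or above that of the lys spike, a bacterial RNA added to each sample in the smallest amount of its cocktail, and these 59 were tested. The study measured gene expression in endothelial cells (ECs) sorted from the ductus arteriosus (DA), the fetal shunt artery between pulmonary artery and aorta, and from the descending aorta of Wistar rats, to ask how ECs of both vessels differ around birth. The 4 groups had 3 arrays each: ECs of the DA (DA F) and of the aorta (aorta F) from fetuses at gestation day 21 taken before breathing, and ECs of the DA (DA N) and of the aorta (aorta N) from neonates 30 minutes into breathing, all delivered by cesarean section. The cells carried CD31 and lacked CD45, and tissue of many litters was pooled for each RNA sample, so the p-values reflect how such pools vary, and DA and aorta of a stage may share litters.

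Potassium channels let potassium leave the cell and so hold the membrane potential negative. In ECs, calcium-activated and inward rectifier channels hyperpolarize the cell, and this spreads to the underlying smooth muscle through gap junctions and relaxes it. In the smooth muscle of the DA, voltage-gated potassium channels are known as targets of oxygen, whose rise at birth closes them and constricts the vessel. Pore subunits (voltage-gated, calcium- or sodium-activated, inward rectifier and two-pore-domain) make the channel, and auxiliary subunits change its gating or its way to the membrane.

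ECs of the DA had lower signals of 3 potassium channel genes than ECs of the aorta at both stages. Kcnn3, the small-conductance calcium-activated channel of endothelium, Kcnq1, a voltage-gated pore subunit, and Kcnmb4, an auxiliary subunit of the large-conductance calcium-activated channel, were lower by 0.65 to 1.08 on the log2 scale. Over both stages together, Kcnab1, an auxiliary subunit of voltage-gated channels, was also lower and Kcne4, a single-pass auxiliary subunit, was higher in the DA. The 3 genes called at both stages were 5.08% of the 59 tested. Of all probe sets, 2.28% were called lower for F and 1.87% for N (3.77% and 3.14% in either direction). With the stages pooled, the 5 genes called were 8.47% of the 59, close to the 8.12% of all probe sets. None of the 59 genes was called between the N and F groups in either vessel. Among all 18690 probe sets, 1 was called between these groups in the DA and 0 in the aorta.

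Endothelial markers were present on all 12 arrays, and so were markers of other cells. The 12 endothelial marker genes with a probe set, among them Pecam1 and Cdh5, were at or above the array's own spike on 12 of 12 arrays, as were Acta2 of smooth muscle, Rgs5 of pericytes, Col1a1 of fibroblasts and Cd68 of macrophages. Csf1r, another macrophage gene, reached it on 8 arrays and Ptprc, which encodes CD45, on 3. Medians of the 12 arrays lay between 5.63 and 5.76. The spike itself differed by replicate number, with log2 signals of 4.53 to 6.17 on the 4 arrays of replicate 1, 4.16 to 4.78 on those of replicate 2 and 3.41 to 3.53 on those of replicate 3. The number of potassium channel genes at or above an array's own spike moved with it: DA F arrays had 14, 70 and 79 such genes and aorta F arrays 45, 66 and 78. DA N arrays had 15, 41 and 78 and aorta N arrays 26, 53 and 81. Over all probe sets the share ran between 43.7% and 87.1% per array.

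**Figure D1:**
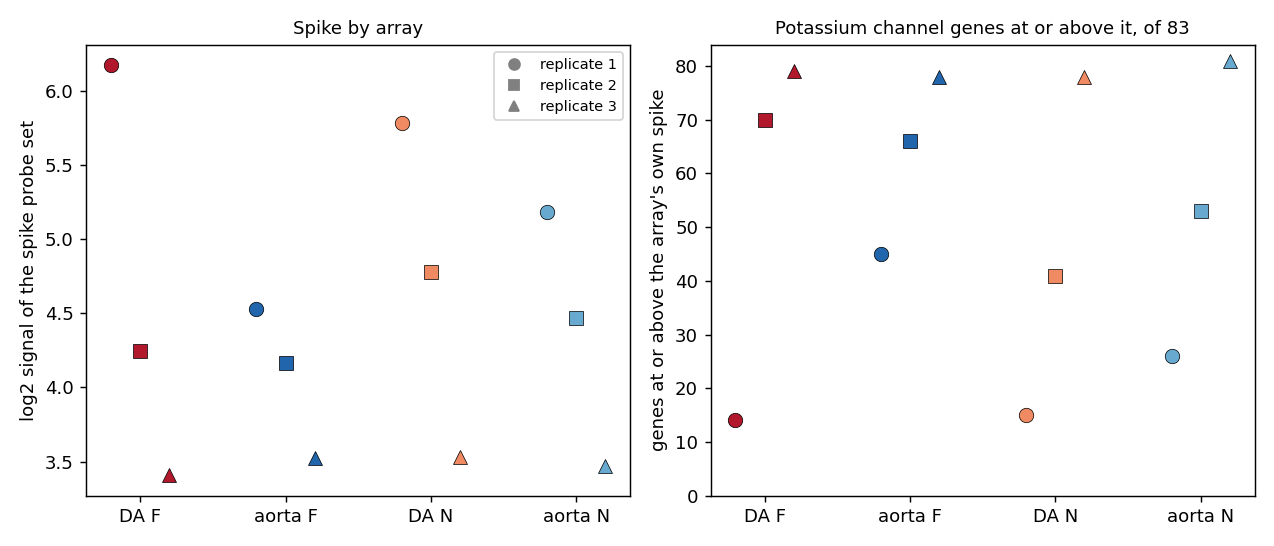
Log2 signal of the spike probe set (left) and number of the 83 potassium channel genes at or above it (right) on each array, by group, with the symbol giving the replicate number. Within each group the replicate 1 array has the highest spike, from 4.53 to 6.17, and the fewest genes above it, from 14 to 45.

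Measured against the spike, 59 of the 83 genes (71.1%) counted as expressed, against 70.6% of all probe sets and 77.4% of genes with a single symbol. The genes nearest the threshold of 4.44 were Kcnk9 at 4.45 and Kcnd3 at 4.44 just inside, and Kcnc2 at 4.43 and Kcnh6 at 4.40 just outside. At or above the spike were 23 of 35 voltage-gated pore subunits, 12 of 16 auxiliary subunits, 10 of 15 inward rectifiers, 9 of 11 two-pore-domain channels and 5 of 6 calcium- and sodium-activated pore subunits. The threshold lay below the array medians, which ran from 5.63 to 5.76. Passing it therefore does not by itself show RNA of the gene, nor a working channel. Signals of different probe sets are not comparable as amounts of RNA, so no order of genes is drawn from them.

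On every array 14 genes (16.9%) reached that array's own spike, against 43.5% of all probe sets and 51.9% of genes with a single symbol. They were Kcnn3 and Kcnn4 among the calcium-activated channels, Kcnj2 and Kcnj12 among the inward rectifiers, Kcnk6 and Kcnk13 among the two-pore-domain channels, Kcnq1, Kcng1, Kcng2, Kcnd1 and Kcna3 among the voltage-gated subunits, and Kcnab1, Kcne3 and Kcne5 among the auxiliary subunits. Of the genes called between the vessels, Kcnmb4 reached it on 10 arrays and Kcne4 on 8, so both drop out under this stricter rule. The rule kept 11525 of all probe sets, as many as the study's own filter left. When only the probe sets that met the rule were tested, a choice made after seeing the data, Kcnn3 and Kcnq1 were called at both stages. Over both stages Kcnn3, Kcnq1, Kcnab1 and Kcnj2 (adjusted p = 0.0480, limma) were called, all lower in the DA. A further 31 genes did so on 8 to 11 arrays, 30 on 4 to 7, and 7 on 1 to 3. Kcnh5 did so on none. The 24 genes below the spike had means between 3.27 and 4.43 and reached their array's own spike on 0 to 7 arrays. Among them were Kcnk2, a mechanically gated two-pore-domain channel, with group means of 4.42 in DA F, 4.37 in aorta F, 4.30 in DA N and 4.44 in aorta N, and Kcnq5, a voltage-gated channel of vascular smooth muscle. Kcnq5 had 4.27, 4.26 and 4.15 on DA F arrays against 3.99, 4.06 and 4.03 on aorta F arrays, and 4.54, 4.28 and 4.91 on DA N arrays against 3.93, 3.87 and 4.33 on aorta N arrays. Kcnq5 was not tested in the fit reported, being under the threshold. In an alternative fit without the threshold, all 83 genes were tested. There 0 genes were called higher in the DA in F or in N, and only Kcne4 over both stages.

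By vessel and stage, the count depended on which spike value was used. Against the mean spike of the group itself (4.61 in DA F, 4.07 in aorta F, 4.70 in DA N and 4.37 in aorta N), 51 genes were expressed in DA F and 67 in aorta F, and 44 in DA N and 60 in aorta N. All probe sets moved the same way, with 68.1% in DA F, 76.2% in aorta F, 65.9% in DA N and 71.8% in aorta N. Against the one mean over 12 arrays, the counts were 61 in DA F and 57 in aorta F, and 59 in DA N and 58 in aorta N. By this second rule 52 genes were expressed in all 4 groups, 19 in none and 12 in some. The 12 genes lay close to the threshold, with group means between 3.87 and 4.90. Kcna6 and Kcnd3, both voltage-gated, passed in the DA and not in the aorta at both stages, and no gene passed in the aorta and not in the DA at both stages. Kcnj11, Kcnk9 and Kcnmb1 missed the threshold in aorta N, Kcnj3 and Kcnmb3 in DA N, and Kcnj6 in aorta F. Kcnc2 passed in DA F and aorta N, Kcnq5 in DA N, and Kcnk2 and Kcnh6 in aorta N. Whether these patterns differ from the spread between arrays was not tested.

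Among the calcium-activated channels a vessel difference was called for Kcnn3 and not for its partner in ECs. Kcnn3 had 8.58, 8.22 and 8.22 on the DA F arrays against 8.97, 8.98 and 9.07 on the aorta F arrays, and 8.26, 8.30 and 8.55 on the DA N arrays against 8.98, 8.89 and 9.19 on the aorta N arrays. All 6 DA arrays lay below all 6 aorta arrays. The log2 fold change of DA over aorta was -0.66 in F (standard error 0.14, adjusted p = 0.0159) and -0.65 in N (standard error 0.14, adjusted p = 0.0221), and -0.66 over both stages (standard error 0.098, adjusted p = 0.000861, limma), an aortic signal 1.58 times that of the DA. In bulk samples of sorted cells, fewer cells with the transcript and less RNA per cell cannot be told apart, and this holds for each gene here. The call in F was lost without DA F replicate 2 (-0.60, adjusted p = 0.0803), DA F replicate 3 (-0.60, 0.0760), aorta F replicate 2 (-0.68, 0.0553) or aorta F replicate 3 (-0.63, 0.0691), and that in N without DA N replicate 1 (-0.59, 0.0821), DA N replicate 2 (-0.61, 0.115), aorta N replicate 1 (-0.67, 0.0738) or aorta N replicate 3 (-0.56, 0.0945). The call over both stages held in each of the 12 fits with 1 array left out, and was lost without the 4 arrays of replicate number 2 (-0.65, adjusted p = 0.0902).

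Kcnn4, the intermediate-conductance channel that works beside Kcnn3 in ECs, had 8.94, 8.82 and 8.70 on DA F arrays against 8.87, 8.28 and 8.40 on aorta F arrays. On DA N arrays it had 8.83, 8.46 and 8.38, against 8.73, 8.34 and 8.48 on aorta N arrays. The groups overlapped at both stages, and the log2 fold change over both stages was 0.17 (95% interval -0.10 to 0.44, adjusted p = 0.573, limma). Kcnma1, the pore of the large-conductance channel, had a log2 fold change of -0.0014 over both stages (95% interval -0.25 to 0.25), at group means of 4.52 in DA F, 4.63 in aorta F, 4.66 in DA N and 4.55 in aorta N that were near the spike.

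Among the auxiliary subunits of that large-conductance channel, Kcnmb4 was called lower in the DA and Kcnmb1 was not called in the fit reported. Kcnmb4, known mainly from neurons, had 5.43, 5.55 and 5.45 on DA F arrays against 6.40, 6.54 and 6.25 on aorta F arrays, and 5.24, 5.47 and 5.52 on DA N arrays against 6.45, 6.43 and 6.58 on aorta N arrays. The gap between the vessels, with no overlap in 6 against 6 arrays, was the largest vessel difference among the 59 genes. Its log2 fold change was -0.92 in F (standard error 0.12, adjusted p = 0.000773) and -1.08 in N (standard error 0.12, adjusted p = 0.000249, limma), so that the aortic signal was 1.89 times that of the DA in F and 2.11 times in N. Kcnmb1, the subunit of the same channel in smooth muscle, had 4.59, 4.77 and 5.12 on DA F arrays against 4.36, 4.60 and 4.59 on aorta F arrays, and 4.71, 4.56 and 4.82 on DA N arrays against 4.21, 4.27 and 4.45 on aorta N arrays. It was higher in the DA in all 6 pairs of same-numbered arrays, by 0.35 over both stages (standard error 0.11, adjusted p = 0.0684, limma), and once replicate number was added as a block it was called over both stages (adjusted p = 0.00704) and in N (adjusted p = 0.0491).

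Among the voltage-gated pore subunits, Kcnq1 stood apart. Kcnq1, which carries slow potassium currents in heart and epithelia and also occurs in arteries, had 7.19, 7.16 and 7.28 on DA F arrays against 7.82, 8.04 and 8.22 on aorta F arrays, and 7.08, 7.27 and 7.26 on DA N arrays against 7.86, 8.01 and 7.94 on aorta N arrays. Again no DA array reached an aortic one. The log2 fold change was -0.81 in F (standard error 0.12, adjusted p = 0.00220) and -0.73 in N (standard error 0.12, adjusted p = 0.00520, limma), an aortic signal 1.76 times that of the DA in F and 1.66 times in N. The calls for Kcnq1 and Kcnmb4 were kept whichever single array was left out, but without the 4 arrays of replicate number 2, which leaves 2 arrays per group, neither gene was called at a single stage (adjusted p = 0.231 in F and 0.367 in N for Kcnq1, and 0.127 in F and 0.0658 in N for Kcnmb4).

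Other voltage-gated subunits with known vascular roles gave smaller values. Kcna5, an oxygen-sensitive channel of DA smooth muscle in other species, had 5.57, 5.50 and 5.32 on DA F arrays against 5.08, 5.06 and 5.31 on aorta F arrays, which did not overlap. On DA N arrays it had 5.35, 5.89 and 5.47, against 5.16, 5.52 and 5.48 on aorta N arrays, which did. Its log2 fold change over both stages was 0.25 (95% interval 0.0014 to 0.49, adjusted p = 0.271, limma). Kcna2, of the same subfamily, gave 0.06 (95% interval -0.20 to 0.31), and Kcng2, a silent subunit that modifies other channels, 0.17 (95% interval -0.19 to 0.53). Kcna1 gave 0.30 over both stages (standard error 0.12, adjusted p = 0.176). In the blocked fit its adjusted p was 0.0126 over both stages and 0.0381 in F.

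The single-pass subunits encoded by the Kcne genes attach to Kcnq1 and other voltage-gated pores. Kcne4, which silences Kcnq1 currents in cell systems with the human proteins, had 5.51, 4.93 and 5.11 on DA F arrays against 4.55, 4.76 and 4.65 on aorta F arrays, and 5.14, 5.16 and 5.07 on DA N arrays against 4.23, 4.42 and 4.90 on aorta N arrays. Each DA array was above each aortic one, though DA F replicate 2 at 4.93 and aorta N replicate 3 at 4.90 were close. The log2 fold change was 0.57 over both stages (standard error 0.13, adjusted p = 0.0147, limma), with 0.53 in F (adjusted p = 0.175) and 0.61 in N (adjusted p = 0.123). It was lost without the 4 arrays of replicate number 1 (0.38, adjusted p = 0.148) or of number 2 (0.63, adjusted p = 0.210). Kcne3, which keeps Kcnq1 open in epithelia, had 8.32, 7.84 and 7.88 on DA F arrays against 8.73, 8.43 and 8.12 on aorta F arrays, and 8.65, 8.06 and 8.07 on DA N arrays against 8.76, 8.29 and 8.24 on aorta N arrays. Replicate 1 was the highest array of each of the 4 groups, and DA and aorta overlapped. The value over both stages was -0.29 (standard error 0.16, adjusted p = 0.365), and with the replicate block, adjusted p was 0.00979, and 0.0164 in F.

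Kcnab1, a cytoplasmic subunit of the Kcna channels, had 8.07, 8.19 and 7.83 on DA F arrays against 8.98, 8.62 and 8.31 on aorta F arrays, and 8.45, 8.02 and 7.81 on DA N arrays against 8.82, 8.65 and 8.37 on aorta N arrays. In F all DA arrays were lower than all aortic ones, and in N the groups overlapped through DA N replicate 1. Over both stages the log2 fold change was -0.57 (standard error 0.15, adjusted p = 0.0305, limma), whereas neither stage alone passed (adjusted p = 0.166 in F and 0.322 in N). With the replicate block both did (adjusted p = 0.00414 in F and 0.0127 in N). The call over both stages was lost without the 4 arrays of replicate number 1 (-0.53, adjusted p = 0.0599) or of number 2 (-0.58, adjusted p = 0.405). It was also lost without DA F replicate 1 (-0.58, adjusted p = 0.0586), DA F replicate 3 (-0.51, 0.0799), aorta F replicate 1 (-0.48, 0.0658), aorta F replicate 2 (-0.57, 0.0666), DA N replicate 2 (-0.55, 0.0816), DA N replicate 3 (-0.49, 0.0704), aorta N replicate 1 (-0.51, 0.0809) or aorta N replicate 2 (-0.56, 0.0736).

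**Figure D2:**
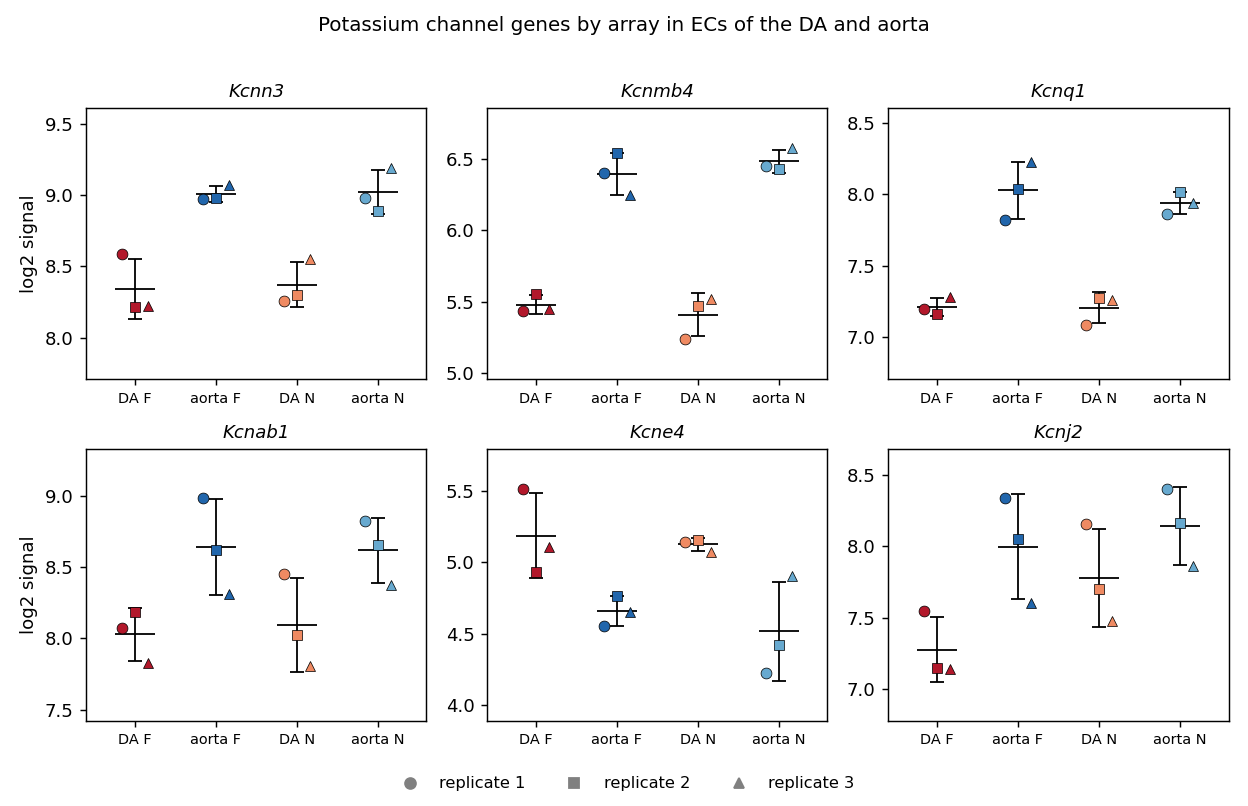
Log2 signal of 6 potassium channel genes on each array (points, with the symbol giving the replicate number), and mean and SD of the 3 arrays of each group (bars). Axes span the same log2 range in each panel. The 6 DA arrays lie below the 6 aorta arrays for Kcnn3, Kcnmb4 and Kcnq1 and above them for Kcne4, while Kcnab1 and Kcnj2 overlap.

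Among the inward rectifiers, Kcnj2 gave the largest vessel difference but was not called in the fit reported, which has no block. Kcnj2, a channel of ECs that responds to shear stress and to potassium outside the cell, had 7.54, 7.15 and 7.14 on DA F arrays against 8.34, 8.05 and 7.60 on aorta F arrays, and 8.16, 7.70 and 7.48 on DA N arrays against 8.40, 8.17 and 7.86 on aorta N arrays. It was lower in the DA in all 6 pairs of same-numbered arrays. The log2 fold change was -0.72 in F (standard error 0.22, adjusted p = 0.123), -0.36 in N (standard error 0.22, adjusted p = 0.723) and -0.54 over both stages (standard error 0.16, adjusted p = 0.0587, limma). With the replicate block it passed in F (adjusted p = 0.000647) and over both stages (adjusted p = 0.000224), and not in N (adjusted p = 0.0505).

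Kcnj8, the pore of the vascular ATP-sensitive channel, had 5.41, 5.62 and 5.91 on DA F arrays against 5.17, 5.73 and 5.46 on aorta F arrays, and 5.58, 5.84 and 6.23 on DA N arrays against 5.23, 5.48 and 5.50 on aorta N arrays. The N groups did not overlap and the F groups did. The log2 fold change was 0.19 in F (adjusted p = 0.816) and 0.48 in N (adjusted p = 0.358, limma), and with the block it passed in N (adjusted p = 0.0348) and over both stages (adjusted p = 0.0186). Kcnj11, the other pore of ATP-sensitive channels, gave 0.06 over both stages (95% interval -0.24 to 0.36), and Kcnj12, a relative of Kcnj2, 0.04 (95% interval -0.30 to 0.38). The two-pore-domain channels, which carry background current, had no member called: Kcnk6 gave 0.17 (95% interval -0.07 to 0.41), Kcnk3 0.07 (95% interval -0.23 to 0.37) and Kcnk13 -0.03 (95% interval -0.32 to 0.25), and the 9 tested members lay between -0.06 and 0.20.

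**Figure D3:**
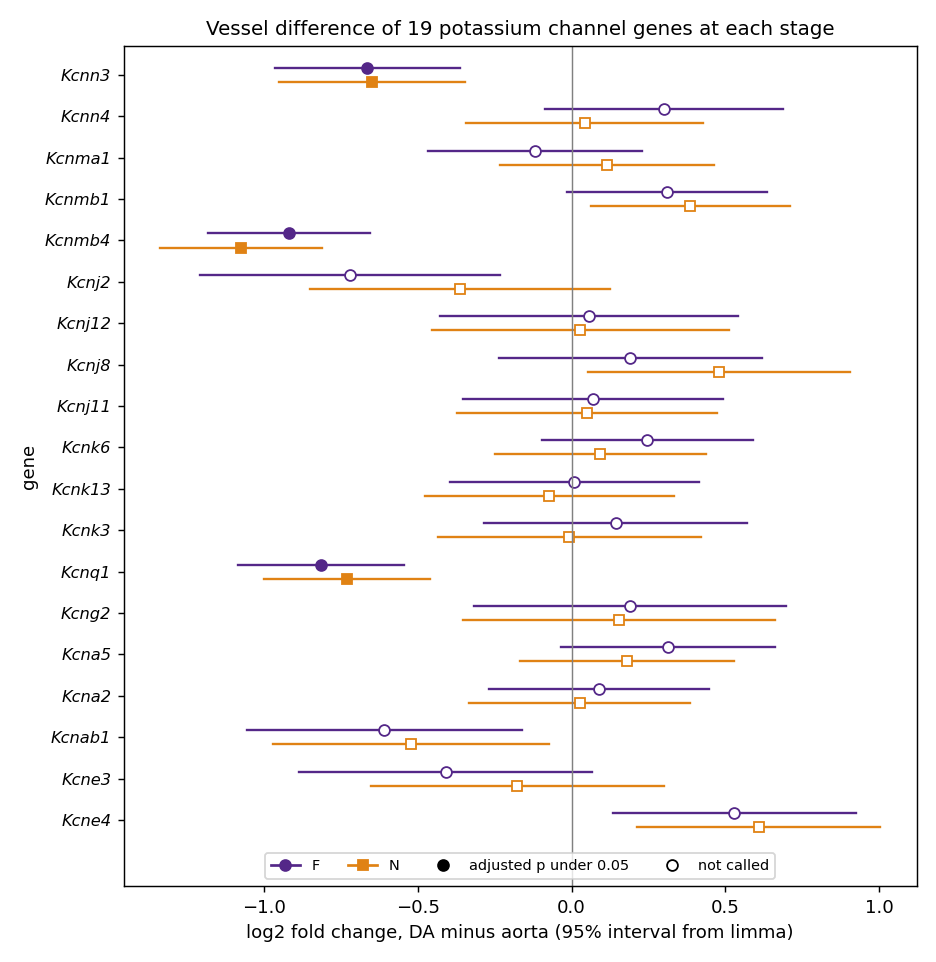
Log2 fold change of DA over aorta in F (circles) and N (squares) with 95% intervals from limma for the 19 named potassium channel genes that were tested. Filled symbols passed an adjusted p of 0.05. Filled symbols appear for Kcnn3, Kcnmb4 and Kcnq1, between -0.65 and -1.08, at both stages.

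Set against all probe sets tested, the share of potassium channel genes called was close to the background. In F, 3 of 59 (5.08%) were called, all lower in the DA, where 2.28% of the 18690 probe sets were called lower and 3.77% in either direction. In N the same 3 genes (5.08%) were called, against 1.87% lower and 3.14% in either direction. Over both stages 4 were lower (6.78%) and 1 higher (1.69%), against 4.93% and 3.19%, or 5 (8.47%) against 8.12% in all. The blocked fit called 7 in F, 6 in N and 10 of the genes in the pooled contrast, where 10.4%, 7.27% and 17.8% of all probe sets were called.

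Arrays that did not overlap gave a like reading. DA and aorta did not overlap for 9 of 59 genes in F (15.3%), where 18.6% of all probe sets did not, and for 7 in N (11.9%), where 15.3% did not. Over both stages they did not overlap for 4 genes (6.78%), Kcnn3, Kcnmb4, Kcnq1 and Kcne4, against 6.98%. The median log2 fold change of the 59 genes was 0.06 in F and 0.03 in N, against -0.0030 and -0.0028 over all probe sets. In F 43 of the 59 values were above 0 (72.9%, against 49.5% of all probe sets), and in N 36 were (61.0%, against 49.4%). The 40 tested members not named by rule lay between -0.16 and 0.42 in F and between -0.21 and 0.24 in N.

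Arrays of a group differed among themselves by replicate number. The within-group SD had a median of 0.23 over the 59 genes and of 0.21 over all probe sets tested. Replicate 3 was the highest of its group in all 4 groups for 11 genes (18.6%, against 7.67% of all probe sets), among them Kcnj12, Kcnk6 and Kcna1. Replicate 1 was for 3, Kcne3, Kcnj2 and Kcnn4 (5.08%, against 21.0%), and replicate 2 for Kcnk9. Kcne3 and Kcnj2 are among the genes that passed with the replicate block and not in the fit reported. Kcnj2 also passed without the block under the stricter rule of every array's own spike.

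Some smooth muscle and pericyte markers had positive values between DA and aorta, and others negative ones. Of the 10 smooth muscle markers, 4 (Acta2, Tagln, Actg2 and Des) were called higher in the DA over both stages, and 2, Myocd and Mylk, lower. Their summed signal, on the log2 scale, was 11.72 to 11.79 on DA F arrays against 11.20 to 11.42 on aorta F arrays, and 11.76 to 12.11 on DA N arrays against 11.30 to 11.45 on aorta N arrays. Acta2 made up most of this sum, with a mean of 10.73 over the 12 arrays, before Smtn at 8.51. Of the 4 pericyte markers tested, 2 were higher and none lower, with sums of 12.92 to 12.98 on DA F arrays against 12.73 to 12.88 on aorta F arrays, and 12.99 to 13.05 on DA N arrays against 12.77 to 12.79 on aorta N arrays. The pericyte sum was almost wholly Rgs5 (mean 12.78, before Pdgfrb at 8.45). Rgs5 was not called over both stages in the unblocked fit (adjusted p = 0.136, limma). The summed endothelial markers were 14.52 to 14.60 on DA F arrays against 14.63 to 14.75 on aorta F arrays and 14.56 to 14.63 on DA N arrays against 14.70 to 14.77 on aorta N arrays, with 2 of 12, Flt1 (-0.55) and Cldn5 (-0.62), lower in the DA over both stages and none higher. Of 6 nerve and Schwann cell markers tested, 0 were called over both stages, and 1, Prph, was higher in the blocked limma fit (0.31, adjusted p = 0.0613 without the block and 0.0150 with it). The remaining lists moved both ways over both stages. Tnnt2 of cardiomyocytes (-0.70, adjusted p = 0.00107) and Col1a1 (-0.48, adjusted p = 0.00453) were lower in the DA, in 6 of 6 pairs of same-numbered arrays each. Col1a2 (0.30, adjusted p = 0.0287) and the erythroid gene Epb42 (0.62, adjusted p = 0.0164) were higher. The erythroid genes Hbb (-0.45, adjusted p = 0.423) and Alas2 (-0.10, adjusted p = 0.691) were below 0 and not called. In N all DA arrays of both were below the aortic ones, and in F those of Alas2 were above and those of Hbb overlapped. The block added Nos3 to the endothelial markers lower in the DA, Cd68 to the leukocyte markers lower, Myh11 and Cnn1 to the smooth muscle markers higher, Rgs5 to the pericyte markers higher, and Col3a1 and Dcn to the fibroblast markers higher. The part of any of these cells in the values of the channel genes was not tested.

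Birth gave no called change. Between N and F, 0 of the 59 genes passed limma in the DA and 0 in the aorta, where 0.00535% and 0% of all probe sets did. At an unadjusted p under 0.05 the DA had 1 gene (1.69%, against 2.01% of all probe sets) and the aorta 0 (against 1.38%). Both the blocked fit and the t-test of the study's methods called 0 in either vessel. N and F arrays overlapped for all 59 genes in both vessels, where 5.03% of all probe sets did not overlap in the DA and 4.39% in the aorta. Over the 59 genes the median was -0.01 for the DA, against 0.02 for all probe sets, and 0.01 for the aorta, against 0.00075.

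Kcnj2 was the gene with an unadjusted p under 0.05. Its signal was higher in DA N than in DA F by 0.61, 0.55 and 0.34 in the 3 pairs of same-numbered arrays, which is 0.50 in the mean (95% interval 0.01 to 0.99, unadjusted p = 0.0445, adjusted p = 0.9997, limma), and in aorta N than in aorta F by 0.07, 0.11 and 0.26, or 0.15 (95% interval -0.34 to 0.63). The difference between these, which is the test of whether the vessel difference changed after birth, was 0.36 (95% interval -0.33 to 1.05). In the DA the lowest value was -0.26, of Kcnn4, and in the aorta the values lay between -0.29, of Kcnt1, and 0.32, of Kcna7. For the vessel difference of N minus that of F, 0 of 59 genes passed, as did 0% of all probe sets. At an unadjusted p under 0.05 there were 0 of the 59, against 0.931% of all probe sets. For the genes called, that difference was 0.01 for Kcnn3 (95% interval -0.41 to 0.44), 0.08 for Kcnq1 (95% interval -0.30 to 0.46), -0.16 for Kcnmb4 (95% interval -0.53 to 0.22), 0.09 for Kcnab1 (95% interval -0.55 to 0.72) and 0.08 for Kcne4 (95% interval -0.48 to 0.64).

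**Figure D4:**
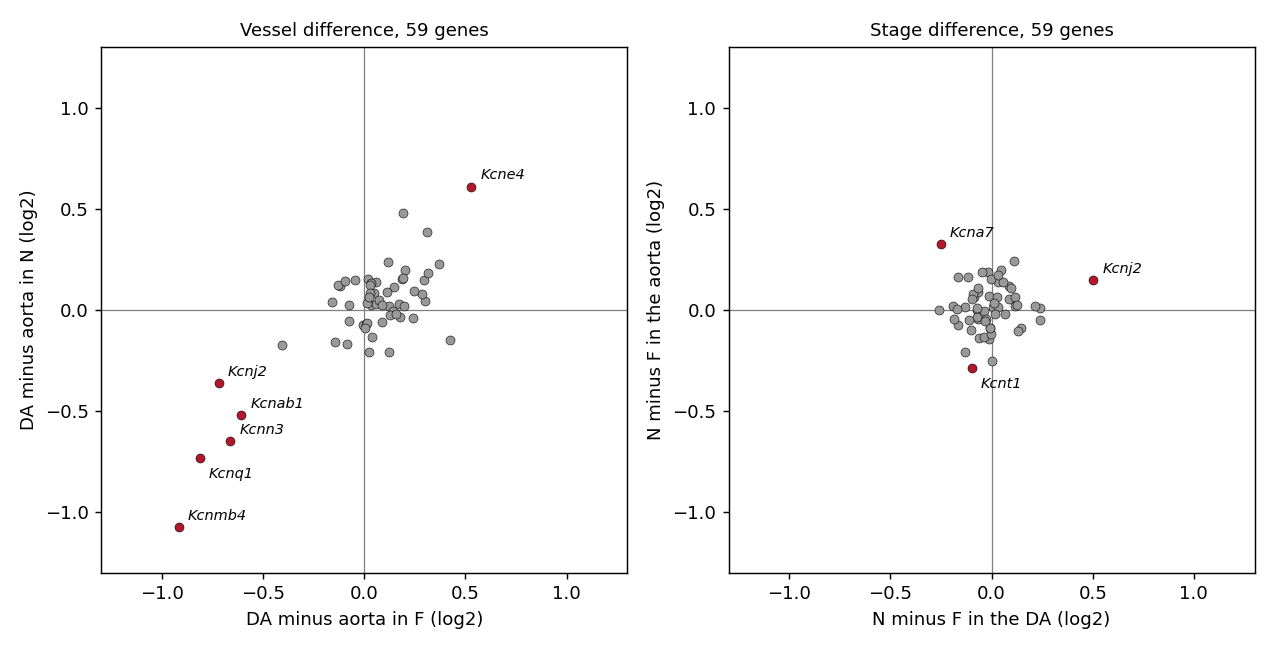
Log2 fold changes of the 59 tested genes, on the left DA over aorta in F (horizontal axis) and in N (vertical axis), on the right N over F in the DA (horizontal axis) and in the aorta (vertical axis), each point 1 gene. On the left Kcnmb4, Kcnq1, Kcnn3, Kcnab1 and Kcnj2 lie low at both stages and Kcne4 high, and on the right the points crowd around 0, with Kcnj2 at 0.50 in the DA.

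The promoters of the genes whose DA and aorta arrays did not overlap at either stage are shown because they are the sequences in front of the vessel differences. Of the 83 genes, 58 had an entry in the RefSeq table of promoters (build GRCr8, 250 bases before to 50 after the start of the gene), and so did 3 of these 4 genes, Kcnmb4, Kcnn3 and Kcne4. Capitals mark matches, on either strand, to any of 8 motifs, which were CCGGAA for ETS factors, CACGTG for the E-box, TGANTCA for AP-1, GATAAG for GATA factors, TGTTTAC for FOX factors, CCNCNCCC for KLF and SP factors, TGACGTCA for the CRE and TATAAA for the TATA box. Kcnmb4, lower in the DA, lies at chr7:54005052-54005351 on the minus strand, Kcnn3, lower in the DA, at chr2:177234090-177234389 on the plus strand, and Kcne4, higher in the DA, at chr9:87695798-87696097 on the plus strand.
Kcnmb4: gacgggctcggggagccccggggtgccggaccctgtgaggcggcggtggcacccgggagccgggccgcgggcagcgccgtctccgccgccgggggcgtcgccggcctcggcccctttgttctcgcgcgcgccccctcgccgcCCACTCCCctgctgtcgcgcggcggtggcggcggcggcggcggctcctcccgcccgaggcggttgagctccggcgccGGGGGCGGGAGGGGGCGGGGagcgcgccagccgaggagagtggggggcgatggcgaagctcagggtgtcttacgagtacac
Kcnn3: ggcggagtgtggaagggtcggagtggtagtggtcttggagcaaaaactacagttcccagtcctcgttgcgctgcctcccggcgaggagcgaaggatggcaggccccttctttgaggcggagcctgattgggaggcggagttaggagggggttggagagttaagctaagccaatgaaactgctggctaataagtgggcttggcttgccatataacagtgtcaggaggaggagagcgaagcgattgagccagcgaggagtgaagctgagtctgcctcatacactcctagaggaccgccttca
Kcne4: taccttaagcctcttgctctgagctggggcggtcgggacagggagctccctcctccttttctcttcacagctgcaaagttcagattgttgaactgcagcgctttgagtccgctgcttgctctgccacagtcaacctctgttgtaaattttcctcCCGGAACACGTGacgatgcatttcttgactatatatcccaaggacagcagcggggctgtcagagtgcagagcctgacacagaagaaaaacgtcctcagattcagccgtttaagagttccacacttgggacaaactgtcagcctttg
The Kcnmb4 promoter was rich in G and C (80.7%, against a median of 51.7% over 33469 promoters) and held 5 KLF and SP matches, 4 of them overlapping, with first bases at -31, -25, -21 and -19 from the start. Of all promoters 46.3% held at least 1. The Kcne4 promoter held 1 ETS match (15% of all promoters) followed directly by 1 E-box (6.42%), with first bases at -96 and -90 from the start. The Kcnn3 promoter held no match to the 8 motifs, including AP-1 (7.33% of all promoters), GATA (7.05%), FOX (3.78%), CRE (1.83%) and TATA (14.2%). A match is a string of letters and was not tested as a binding site.

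Some other genes of potassium handling differed between the vessels by more than most of the channel genes did. Of 32 listed partner genes 23 were tested. Over both stages 3 of them were called lower in the DA and 1 higher, where 4.93% and 3.19% of all probe sets were. The median log2 fold change of the 23 was -0.03. Atp1b1, a beta subunit of the sodium-potassium pump, was lower, at group means of 7.88 in DA F against 9.17 in aorta F and of 7.81 in DA N against 9.24 in aorta N. Its log2 fold change was -1.36 over both stages (standard error 0.084, adjusted p = 8.07e-07, limma). Dpp6, a partner of Kcnd channels, was lower by 1.03 on the log2 scale (-1.03, standard error 0.076, adjusted p = 2.95e-06), with 8.66 in DA F against 9.72 in aorta F and 8.62 in DA N against 9.62 in aorta N. Slc12a2, a sodium, potassium and chloride cotransporter, gave -0.64 over both stages (adjusted p = 0.0103), with -0.77 in F (adjusted p = 0.0469) and -0.51 in N (adjusted p = 0.280, and 0.0186 with the replicate block). Hcn3, of the same family as Hcn4, gave 0.27 over both stages (adjusted p = 0.122, and 0.0475 with the block). Hcn4, a hyperpolarization-activated cation channel of pacemaker cells, was higher in the DA by 1.34 (standard error 0.11, adjusted p = 7.09e-06), with 6.97 in DA F against 5.48 in aorta F and 6.95 in DA N against 5.76 in aorta N. Abcc8 and Abcc9, the sulfonylurea receptors that complete ATP-sensitive channels, gave 0.08 and 0.03 (adjusted p = 0.857 and 0.950), and none of the 23 partner genes was called between N and F in either vessel.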

How the data were processed

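ECs were sorted by FACS, RNA of pooled litters was amplified and hybridized to Rat Gene 1.0 ST arrays, and the authors deposited a log2 signal for each probe set, already summarised and normalized, by a method not given in the sources used here. Nothing further was normalized. Precision is limited by the array number. Of 26468 probe sets 15307 carry 1 gene symbol, 323 several and 10838 none in the platform annotation. The lys spike comes from the study's methods, but the threshold used here, its mean over the 12 arrays, is looser than the study's filter. With only the 11525 probe sets at or above the spike on every array, an alternative chosen after seeing the data, 14 members were tested. The study's filter left the same number of probe sets. limma 3.58.1 (R 4.3.3) was fitted to the 4 group means, with Benjamini-Hochberg adjustment over 18690 probe sets and calls at an adjusted p under 0.05. The fit was tested on simulated data. Fold changes are DA minus aorta or N minus F.

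Same-numbered arrays of different groups deviated together (correlation of deviations from the group means 0.54 to 0.82 for replicate 1, 0.10 to 0.30 for 2 and 0.39 to 0.74 for 3, and -0.74 to 0.37 between numbers), so the numbers were taken to pair the arrays. What a number stands for is not given in the labels. The fit reported has no block, as in the study's unpaired test, and the fit with the replicate number as a block is given where it changed a member's call.

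Named genes were the members called, the 2 of highest signal in each of 5 role classes, and a fixed list of vascular channels, not all of which are reported here. Members, lists and tests were chosen with earlier results of these data known. Alternatives covered the filter, scaling, the block, the methods' t-test, array weights, probe set averaging and leaving out arrays. Figures were drawn with matplotlib 3.10.9.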

Additional observations from a re-analysis of the deposited data

How the results depend on the processing

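No alternative turned the direction of a called gene. Under the stricter rules, 14 of the 83 genes reached the array's own spike on all 12 arrays, 26 had a mean at least 1 above the spike and 21 reached the median of all probe sets, against 59 by the rule used, and without single arrays the count was 52 to 65. Calls between DA and aorta (3 in F, 3 in N, 5 in the pooled contrast) became 0, 1 and 0 with a fold of at least 2. Of the 18690 probe sets, 257, 237 and 245 were called under that rule. They were 7, 6 and 10 with the replicate block (1951, 1358 and 3327 probe sets) and 6, 7 and 10 with the block as a random effect (1870, 1364 and 3168). The methods' t-test called 0 in F and 1 in N at p under 0.05 with a 2-fold change (262 and 242 probe sets), and 0 and 0 after Benjamini-Hochberg (67 and 44). Array weights gave 6 in N and 9 over both stages (2077 and 2978 probe sets). Leaving out single arrays gave 2 to 3 in F, 2 to 3 in N and 4 to 6 over both stages. Without the 4 arrays of replicate number 2, an alternative chosen after seeing the data, the counts were 0, 0 and 2, from 2 arrays per group. Calls over all probe sets fell as well, to 109, 64 and 363, from 705, 586 and 1518. Without number 1 or 3 the counts of potassium channel genes stayed between 2 and 4. Single genes lost a call under quantile normalization (Kcnn3 in F, adjusted p = 0.0551), median centring (Kcnab1, 0.0507) and a fit of the 6 N arrays alone (Kcnn3 in N, 0.0919). The stage contrasts and the difference of vessel differences stayed at 0 under each alternative run, single arrays left out included (0 to 0). Tested only among probe sets at or above the spike on every array, also chosen after seeing the data, 14 genes gave 2, 2 and 4 calls. Of the 11525 probe sets tested there, 676, 524 and 1341 were called. The replicate block changed no other call of a potassium channel gene. There were 3 pools in each group.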

Other observations

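A few probe sets of potassium channel genes stood outside the rule. The probe set named for both Kcnk16 and Kcnk5, both of the two-pore-domain family, had 5.31, 5.47 and 5.38 on DA F arrays against 5.59, 5.57 and 5.42 on aorta F arrays, and 5.37, 5.51 and 5.32 on DA N arrays against 5.65, 5.40 and 5.66 on aorta N arrays, a log2 fold change of -0.15 over both stages (adjusted p = 0.376, limma). The second probe set of Kcnip2, a partner of Kcnd channels, had group means of 4.65 in DA F against 4.75 in aorta F and 4.59 in DA N against 4.71 in aorta N, and that of Kcnip1 lay below the spike, with a mean of 2.95 over the 12 arrays.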
